A study of Mus musculus with 4 samples.

Results

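The comparison described here sets osteogenic induction against control medium in cells labelled wild type (WT), 1 library a side. The cells were primary mesenchymal stem cells (MSCs) of mouse bone marrow, adherent marrow cells that can form bone, fat and cartilage cells. The series holds 4 libraries, 1 for each combination of the labels wild type or KDM4B KO, a knockout of the histone demethylase gene Kdm4b, with control or osteogenic induction. Culture lasted 4 days in each group. The strain, age and number of animals, the composition of either medium and the way the KO was made are not given in the sources used here. Of 24346 entries in each table, 24319 carried a gene symbol, and 12094 of these had at least 1 FPKM in either WT library. FPKM counts fragments per kilobase of transcript after scaling for the mapped fragments of a library. Small RNA genes (162), genes of the X and Y chromosomes (386) and genes with no chromosome (28) were left out, so that 11518 autosomal genes were compared. For each of them the log2 ratio of FPKM + 1, induced over control, was taken, a scale on which differences of low genes are understated. A gene was called higher or lower when its ratio reached 1 in either direction, that is, a 2-fold difference. Below, the control library and the induced library are those labelled WT, and the KO pair is the control and induced libraries labelled KO.

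Osteogenic media usually combine ascorbate, which collagen hydroxylation needs, a phosphate donor and often the glucocorticoid dexamethasone. Precursor cells that turn into osteoblasts switch on the transcription factors Runx2 and osterix, lay down type I collagen, and then make the alkaline phosphatase and the acidic phosphoproteins of mineralising matrix. Wnt and BMP signals drive this course, and leaving the cell cycle goes with it. Marrow cultures that adhere to plastic commonly hold macrophages beside the stromal cells.

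Each group held 1 library and no replicates exist, so no value below has a standard error, a test or a p-value, and no difference could be set against the spread between cultures. The libraries stood apart in ways other than medium. Xist, the RNA that silences an X chromosome in female cells, was at 23.97 FPKM in the control library, 0.0621 FPKM in the induced library, and 30.5 and 21.6 FPKM in the KO pair. The Y-linked gene Ddx3y was at 28.7 FPKM in the induced library and at most 0.0208 FPKM in the other 3. Medium and the sex of the cells' donor therefore cannot be told apart in any value of this comparison. Whether the induced library came from a male animal or its label was mixed up cannot be told apart either, so WT below stands for what the libraries are labelled. Kdm4b itself was at 4.60 and 5.83 FPKM in the WT pair (log2 ratio 0.29) and at 4.30 and 4.26 FPKM in the KO pair (-0.01). Macrophage genes were abundant on both sides: 29 of 30 listed macrophage genes reached 1 FPKM and are autosomal. Their list summed to 22051 FPKM in the control library, 14983 in the induced library, and 20547 and 19161 in the KO pair. Sums over all entries differed as well, at 701293 FPKM in the control library, 561715 in the induced library, and 585298 and 685420 in the KO pair. The part of macrophages in the results for other genes was not tested. In such a mixed culture fewer cells of a type and less RNA per cell cannot be told apart. Read totals are unknown. Judged by the spacing of low values, the induced library had a depth of 0.805 of that of the control library. Rn45s, which stands for precursor ribosomal RNA, had a value of 0 in the control library and was at 12553 FPKM in the induced one. In the KO pair it was at 13586 FPKM in control medium and 15014 FPKM after induction. It was not among the genes compared.

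Promoters are shown for 3 bone matrix genes and 1 glucocorticoid target that were all higher in the induced library, because the factors that act on such genes have known recognition letters. Each holds 250 bases before and 50 from the annotated start, from RefSeq on the build GRCm38.p6. The core letters bound by Runx factors, ACCACA on either strand, and the glucocorticoid response element, GNACANNNTGTNC with N for any base, are in capitals where they occur. Ibsp lies at chr5:104299037-104299336, Spp1 at chr5:104434861-104435160, Dmp1 at chr5:104202367-104202666 and Sgk1 at chr10:21993640-21993939, each on the + strand.
Ibsp: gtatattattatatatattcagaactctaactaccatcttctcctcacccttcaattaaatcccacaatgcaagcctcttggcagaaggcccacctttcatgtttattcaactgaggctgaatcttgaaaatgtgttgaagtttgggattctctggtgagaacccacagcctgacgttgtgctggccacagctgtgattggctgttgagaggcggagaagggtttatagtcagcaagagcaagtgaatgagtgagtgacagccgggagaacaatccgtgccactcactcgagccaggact
Spp1: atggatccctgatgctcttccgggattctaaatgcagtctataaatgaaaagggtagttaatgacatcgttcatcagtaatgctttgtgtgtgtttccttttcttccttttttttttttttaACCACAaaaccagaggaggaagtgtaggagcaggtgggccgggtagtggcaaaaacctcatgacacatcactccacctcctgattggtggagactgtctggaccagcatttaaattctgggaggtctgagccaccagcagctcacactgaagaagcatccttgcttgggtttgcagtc
Dmp1: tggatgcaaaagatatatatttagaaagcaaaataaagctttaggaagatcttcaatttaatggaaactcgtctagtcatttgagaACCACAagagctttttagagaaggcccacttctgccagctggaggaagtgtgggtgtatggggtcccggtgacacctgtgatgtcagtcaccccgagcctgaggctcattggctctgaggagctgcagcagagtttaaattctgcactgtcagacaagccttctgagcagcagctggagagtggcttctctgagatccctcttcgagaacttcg
Sgk1: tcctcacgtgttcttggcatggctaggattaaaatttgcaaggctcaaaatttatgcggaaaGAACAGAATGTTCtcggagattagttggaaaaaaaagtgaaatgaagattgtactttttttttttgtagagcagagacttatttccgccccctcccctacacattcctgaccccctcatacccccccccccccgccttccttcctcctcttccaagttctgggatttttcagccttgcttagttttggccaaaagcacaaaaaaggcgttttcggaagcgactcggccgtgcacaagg
The Runx letters began 128 bases before the Spp1 start shown and 164 bases before the Dmp1 start shown. Spp1 and Dmp1 each have 1 more annotated start, whose window held neither motif, and Ibsp had none in its window. Of the 8 listed promoters of 6 higher bone matrix genes, 3 held them, namely those of Spp1, Dmp1 and Ogn, beside 16.8% of 32851 mouse promoters and 12.5% of the promoters of compared genes. Across the promoters of all higher genes the share was 10.3%, and across those of all lower genes 14.2%. The glucocorticoid element began 188 bases before the Sgk1 start shown, which is 1 of several starts annotated for that gene. No other Sgk1 window held the element, and those at chr10:21881934-21882233 and chr10:21985854-21986153 held the Runx letters. Fkbp5, the glucocorticoid target with the largest ratio, is not shown, and its window held neither motif. The glucocorticoid element was found in 1 of 17 promoters of the 10 higher glucocorticoid genes that had an entry. Its share was 0.475% among all promoters and 0.28% among those of compared genes. Across the promoters of all higher genes its share was 0.397%, and across those of all lower genes 0.624%. Both are matches of letters and not measured binding.

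Of the 11518 genes, 778 (6.75%) were higher and 852 (7.4%) were lower in the induced library, 14.2% in all, and 9888 were within the rule. The counts given for gene lists below stand beside these shares. With the libraries rescaled without their most abundant entries, 1411 genes were higher and 536 were lower, and the median log2 ratio of all genes was 0.23. As deposited, the median log2 ratio was -0.04, and the middle part of the distribution, from the 25th to the 75th percentile, ran from -0.47 to 0.40. The share called was 13.8% among genes whose higher value lay from 1 to 5 FPKM and 20.2% among genes at 100 FPKM or more, so that calls were not confined to low values. Just past the rule, and so called, lay Qsox1 (1.001) and Tbcb (-1.001). Just short of it lay Lrrk1, whose ratio before rounding was 0.999, and Msmo1. In the KO pair, which shares no library with the WT pair, 0.945% of 11212 genes were higher and 0.767% were lower.

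**Figure D1:**
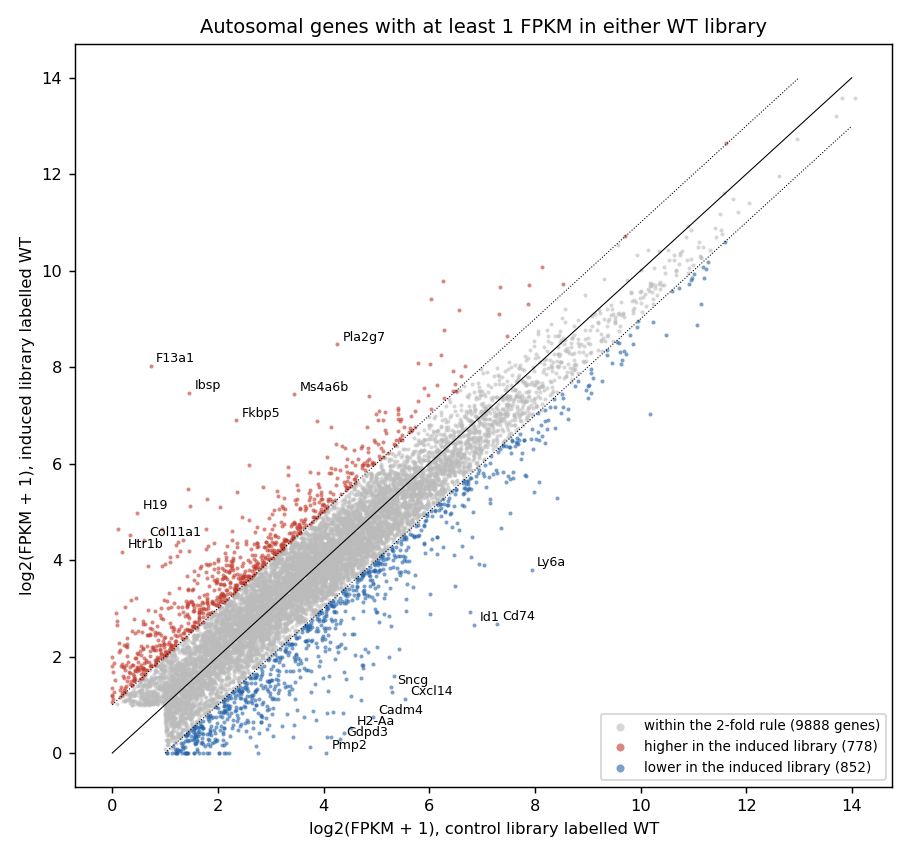
Each point is 1 of the 11518 autosomal genes, with log2(FPKM + 1) in the control library on the x axis and in the induced library on the y axis. The dotted lines mark the 2-fold rule, with 778 genes above and 852 below, and most of the 10 largest ratios each way carry their names.

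Among genes with a plain symbol (no predicted or RIKEN entries) that reached 5 FPKM, the largest ratio was that of F13a1, which encodes the A chain of coagulation factor XIII and is made by macrophages, at 0.658 FPKM in the control library and 259.8 FPKM in the induced library (log2 ratio 7.30). Ibsp, bone sialoprotein, came next at 1.74 FPKM in the control library and 177 FPKM in the induced library (log2 ratio 6.02). Fkbp5, a co-chaperone that glucocorticoids induce, was at 4.10 FPKM in the control library and 118 FPKM in the induced library (log2 ratio 4.54). All 3 were below 5 FPKM in control medium and above 100 FPKM after induction. They were followed by the ephrin receptor Epha3 (4.52), the imprinted non-coding RNA H19 (4.52), the lipid hydrolase Pla2g7 (4.22), the ectoenzyme Cd38 (4.19), Ms4a6b (3.9999), the serotonin receptor Htr1b (3.99), the collagen chain Col11a1 (3.82), the endothelin receptor Ednrb (3.70), the sialic acid-binding lectin Siglec1 (3.63), the matricellular gene Postn (3.53) and Itgbl1 (3.48). Atp6v0c, a subunit of the vacuolar proton pump, also ranked here at 3.37, but it shares reads with Atp6v0c-ps2, and together they came to 1223 FPKM in the control library and 808 in the induced library (log2 ratio -0.60).

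Among the same genes, the lower ones were led by Cd74, the invariant chain of MHC class II, at 155 FPKM in the control library and 5.42 FPKM in the induced library (log2 ratio -4.60). The chemokine gene Cxcl14 was at 45.5 FPKM in the control library and 1.19 FPKM in the induced library (log2 ratio -4.41), and Cadm4, an adhesion molecule, at 29.5 FPKM in the control library and 0.669 FPKM in the induced library (log2 ratio -4.19). Each of them was clearly expressed in control medium and low after induction. Id1 (-4.19), a BMP-induced inhibitor of helix-loop-helix factors, Ly6a (-4.15), the surface antigen Sca-1, Gdpd3 (-4.04), Efemp1 (-4.02), which encodes fibulin-3, the MHC class II chain H2-Aa (-4.01), the synuclein Sncg (-3.92), Plac8 (-3.84), the progenitor antigen Cd34 (-3.80), Ly6c1 (-3.75), the lectin langerin, Cd207 (-3.73), and Sap25 (-3.62) followed. The myelin lipid carrier Pmp2 was at 15.5 FPKM in the control library and listed at 0 in the induced one.

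**Figure D2:**
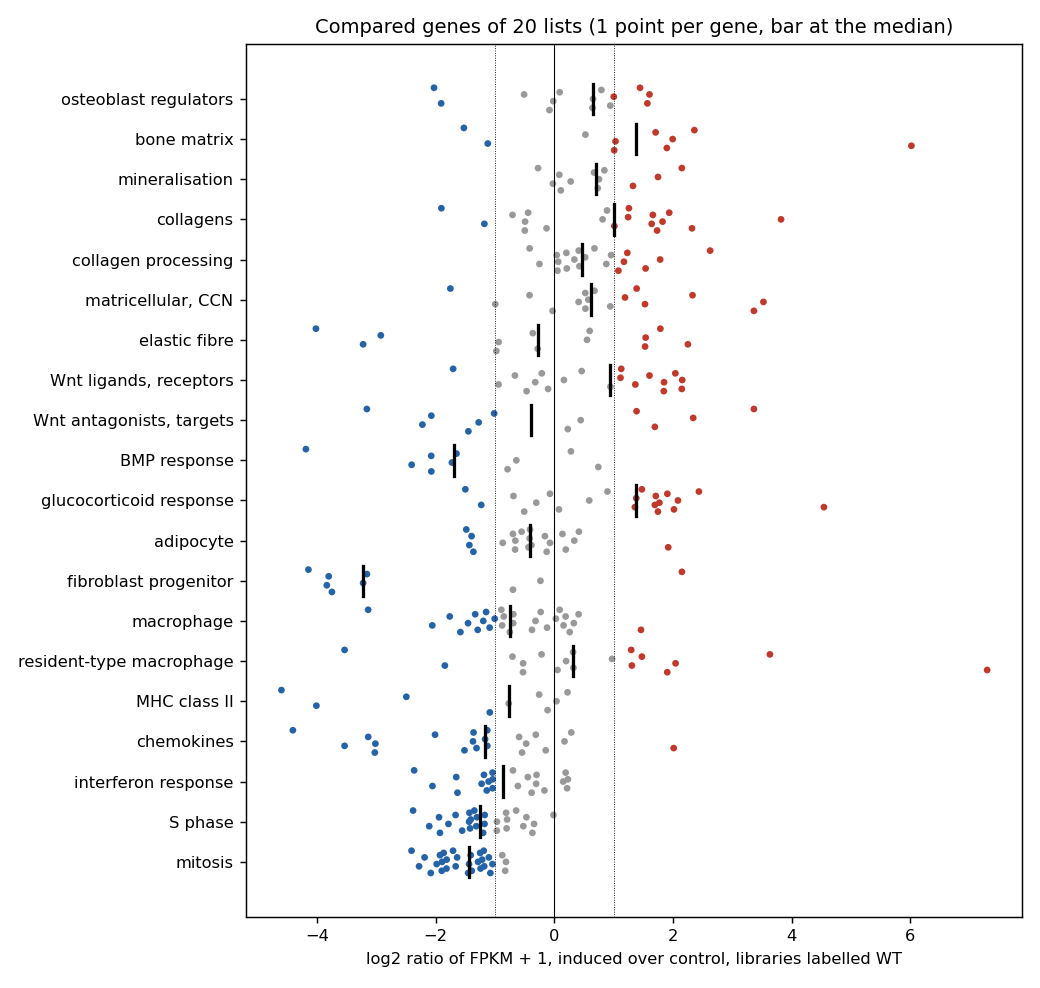
Each point is 1 compared gene of 20 lists, at its log2 ratio of FPKM + 1, induced over control, with red and blue for genes past the 2-fold rule (dotted lines) and a bar at the list's median. The medians run from -3.22 for fibroblast progenitor markers to 1.38 for the glucocorticoid response, with all S phase and mitosis points at or left of 0.

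Of 16 osteoblast regulators, 14 were compared, 4 were higher, 2 were lower, and the median ratio was 0.65, beside -0.04 over all genes. Sp7, the osteoblast factor osterix, was at 2.11 and 8.46 FPKM in the WT pair (log2 ratio 1.60) and at 3.40 and 1.18 FPKM in the KO pair (-1.02). The homeobox gene Dlx5 was at 3.49 and 11.2 FPKM in the WT pair (log2 ratio 1.44) and at 4.67 and 3.58 FPKM in the KO pair (-0.31), and its neighbour Dlx6 at 0.408 and 3.18 FPKM in the WT pair (log2 ratio 1.57) and at 0.203 and 0.124 FPKM in the KO pair (-0.10). For these 3 genes the induced WT library was the highest of the 4, and in the KO pair the induced value was below the control value. Runx2, the master factor of the lineage, was at 3.21 and 7.10 FPKM in the WT pair (log2 ratio 0.94) and at 3.18 and 3.11 FPKM in the KO pair (-0.02), just short of the rule, and its partner Cbfb had a ratio of 0.64. The lower members were Msx2, a homeobox gene of skeletal precursors, at 6.61 FPKM in the control library and 0.866 FPKM in the induced library (log2 ratio -2.03), and Twist2, a repressor of osteoblast maturation, at 7.29 FPKM in the control library and 1.21 FPKM in the induced library (log2 ratio -1.91). Dlx3 and Msx1 stayed under 1 FPKM.

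Of 18 bone matrix genes, 10 were compared, 7 were higher, 2 were lower, and the median was 1.37. Ibsp, whose product binds hydroxyapatite, was at 1.11 and 1.98 FPKM in the KO pair, so that the induced WT library held the one high value. Dmp1, a matrix protein of osteocytes, was listed at 0 in the control library and was at 2.99 FPKM in the induced one, and it was at 0.0440 and 0.0130 FPKM in the KO pair. Spp1, osteopontin, which macrophages make as well, was at 3152 and 6442 FPKM in the WT pair (log2 ratio 1.03) and at 3210.4 and 1658 FPKM in the KO pair (-0.95). It was the most abundant member in both WT libraries, and among the 4 libraries it was lowest in the induced KO one and highest in the induced WT one. The leucine-rich proteoglycans Ogn (8.32 to 33.7 FPKM) and Omd (1.49 to 7.12 FPKM), tenascin-N, Tnn (0.327 to 5.81 FPKM), and the mineralisation inhibitor Mgp (834 to 1679 FPKM) were higher too. Mgp was the only one of the 7 that was also higher in the KO pair, where its ratio was 1.06. Osteocalcin went the other way. Bglap2 was at 2.50 FPKM in the control library and 0.216 FPKM in the induced library (log2 ratio -1.53), and since the osteocalcin genes share reads, the sum of Bglap, Bglap2 and Bglap3 is the safer value, at 3.49 and 0.433 FPKM in the WT pair and 3.41 and 2.36 FPKM in the KO pair. The glycoprotein gene Pdpn (-1.12) was also lower, and with the trend of the ratio on transcript length removed neither it nor Bglap2 passed the rule. Mepe, Bglap3 and Kera were listed at 0 in both WT libraries.

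Of 16 mineralisation genes, 12 were compared, 3 were higher and none was lower, with a median of 0.70. Enpp1, which makes the mineral inhibitor pyrophosphate, was at 2.40 and 14.1 FPKM in the WT pair (log2 ratio 2.15) and at 4.33 and 3.13 FPKM in the KO pair (-0.37). The pyrophosphate transporter Ank was at 49.3 and 125 FPKM in the WT pair (log2 ratio 1.33) and at 70.0 and 36.8 FPKM in the KO pair (-0.91), and the parathyroid hormone receptor Pth1r at 3.72 and 14.9 FPKM in the WT pair (log2 ratio 1.75) and at 2.61 and 3.48 FPKM in the KO pair (0.31). In all 3 the induced WT library was the highest. Alpl, the phosphatase that splits pyrophosphate, was within the rule at 8.90 and 15.7 FPKM in the WT pair (log2 ratio 0.75) and at 8.33 and 4.58 FPKM in the KO pair (-0.74). The phosphatase Phospho1 of matrix vesicles differed little (0.08), and the osteocyte genes Sost and Fgf23 were listed at 0 in both WT libraries.

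**Figure D3:**
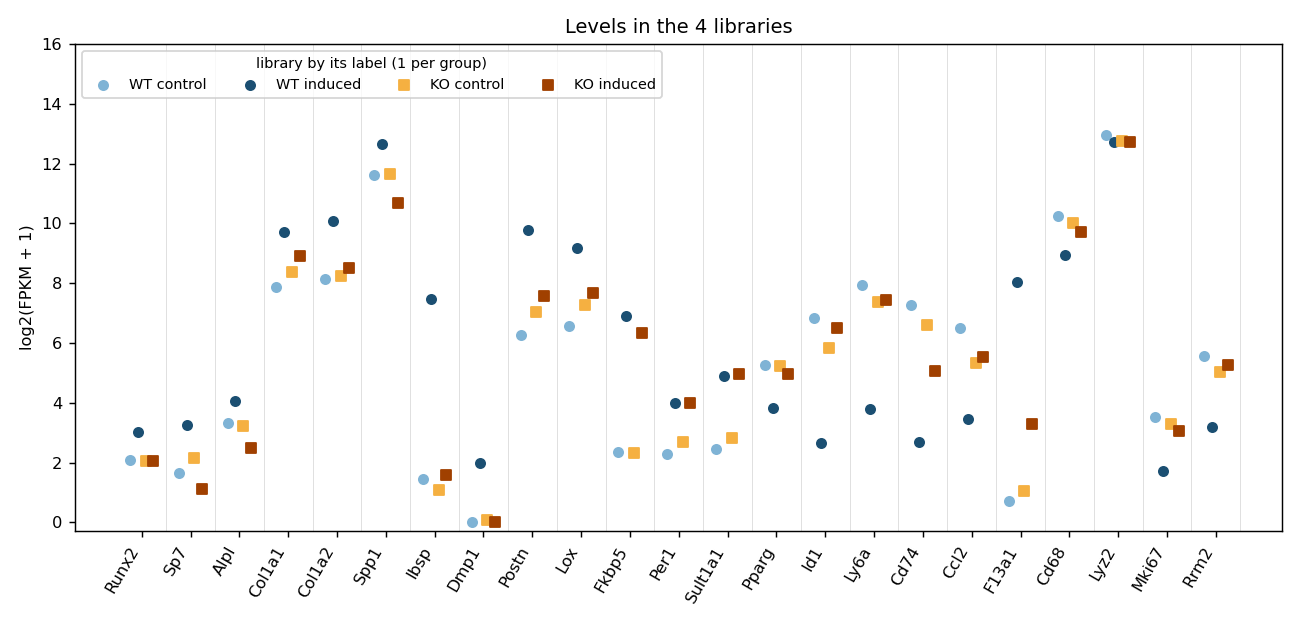
Points give log2(FPKM + 1) of 23 genes in each of the 4 libraries, with circles for the WT pair and squares for the KO pair. The induced WT library holds the highest point for Ibsp, Sp7, Col1a2 and Postn and the lowest for Id1, Ly6a and Mki67, while Fkbp5, Per1 and Sult1a1 are high in both induced libraries.

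Collagen genes were mostly higher. Of 20 listed, 19 were compared, 10 were higher, 2 were lower, and the median was 1.01. The type I chains, the bulk of bone matrix, were at 235 and 836 FPKM for Col1a1 (log2 ratio 1.82) and at 279.5 and 1073 FPKM for Col1a2 (1.94). In the KO pair Col1a1 was at 329.6 and 477 FPKM and Col1a2 at 303 and 359 FPKM, so the induced KO library lay between the control libraries and the induced WT library. The minor fibril chains Col11a1 (3.82) and Col5a1 (1.73), the type III chain Col3a1 (1.66) and the fibril-associated Col12a1 (2.32) were higher as well. So were the type VI chains Col6a2 (1.26) and Col6a3 (1.64), and Col8a1 (1.24) and Col8a2 (1.01). Col8a2 was low throughout, at 0.114 and 1.25 FPKM in the WT pair and at 0.232 and 0.519 FPKM in the KO pair. The basement membrane zone collagens Col15a1 (-1.90) and Col18a1 (-1.18) were lower. With the control library labelled KO in place of that labelled WT, 6 collagens were higher instead of 10.

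Enzymes that modify and join collagen followed, with 20 of 21 compared, 6 higher, none lower and a median of 0.47. Lox, the lysyl oxidase that starts cross-links, was at 93.5 and 582 FPKM in the WT pair (log2 ratio 2.63) and at 152 and 204 FPKM in the KO pair (0.42). Its relative Loxl3 was at 34.0 FPKM in the control library and 119.6 FPKM in the induced library (log2 ratio 1.78), and the lysyl hydroxylase Plod2, which sets the cross-link type of bone, at 10.7 FPKM in the control library and 33.1 FPKM in the induced library (log2 ratio 1.54). The collagen chaperones Serpinh1 (1.17) and Fkbp10 (1.23) and the propeptide-cutting protease Adamts2 (1.08) completed the 6. The prolyl hydroxylase chains P4ha1, P4ha2 and P4ha3 had ratios of 0.34, 0.52 and 0.68, all within the rule.

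Among the small leucine-rich proteoglycans, which bind collagen fibrils, 7 of 12 genes were compared, 5 were higher and 1 was lower. Aspn, asporin, was at 1.38 and 19.8 FPKM in the WT pair (log2 ratio 3.13) and at 3.21 and 5.44 FPKM in the KO pair (0.62). The other higher members were Fmod (1.52), fibromodulin, Lum, lumican, and Ogn and Omd, which the bone matrix list holds too. Lum was low throughout, at 0.0264 and 1.40 FPKM in the WT pair (log2 ratio 1.23) and at 1.21 and 1.04 FPKM in the KO pair (-0.12). Prelp (-2.06) was lower, and Dcn was within the rule at 0.21. The X-linked member Bgn, biglycan, was outside the autosomal set and made up most of the list's summed level. Bgn was at 447 and 505 FPKM in the WT pair (log2 ratio 0.17) and at 483 and 372 FPKM in the KO pair (-0.38). The whole list summed to 477 FPKM in the control library and 586 FPKM in the induced library. Of 18 matricellular genes, 16 were compared and 6 were higher, with a median of 0.63. Postn, periostin, was at 75.8 and 883 FPKM in the WT pair (log2 ratio 3.53) and at 131 and 190.2 FPKM in the KO pair (0.54), and Wisp1, a CCN family gene that Wnt signals induce, at 5.05 and 61.3 FPKM in the WT pair (log2 ratio 3.36) and at 2.68 and 3.21 FPKM in the KO pair (0.19). Thbs1 (161 to 814 FPKM), Fn1 (369.7 to 846 FPKM), Thbs2 (1.53) and tenascin-C, Tnc (1.39), were the other 4. Comp (-1.75), a cartilage matrix gene, was the 1 lower member.

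Elastic fibre genes split. Of 18, 13 were compared, 4 were higher and 3 were lower, and the median of -0.28 changed sign when the libraries were rescaled without their most abundant entries, when the KO control library was used and at a floor of 5 FPKM. Ltbp1, which holds latent TGF-beta in the matrix, was at 5.003 FPKM in the control library and 27.6 FPKM in the induced library (log2 ratio 2.25), and the microfibril gene Fbn1 at 10.1 FPKM in the control library and 37.2 FPKM in the induced library (log2 ratio 1.79). In contrast Efemp1 was at 38.1 and 1.41 FPKM in the WT pair (log2 ratio -4.02) and at 52.3 and 43.5 FPKM in the KO pair (-0.26). Mfap5, another microfibril gene, was at 15.7 and 0.786 FPKM in the WT pair (log2 ratio -3.22) and at 24.8 and 38.4 FPKM in the KO pair (0.61). For both, the induced WT library was far below the other 3. Ltbp2 (-2.93) was the third lower member, and elastin itself, Eln, was listed at 0 in both WT libraries.

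Matrix proteases and their inhibitors had 21 of 24 genes compared, 9 higher and 2 lower, with a median of 0.72. Mmp13, the collagenase of osteoblasts and hypertrophic cartilage, was at 16.7 and 107 FPKM in the WT pair (log2 ratio 2.60) and at 28.9 and 10.5 FPKM in the KO pair (-1.38). Its ratio was past the rule in opposite directions in the WT and KO pairs. Mmp2, a gelatinase, was at 28.1 FPKM in the control library and 168 FPKM in the induced library (log2 ratio 2.54), and Adam12 at 1.005 FPKM in the control library and 14.03 FPKM in the induced library (log2 ratio 2.91). Mmp10 (2.28), Adamts12 (2.05), Adamts1 (1.95), Mmp23 (1.65), Mmp19 (1.52) and Adamts4 (1.28) were also higher. The macrophage elastase Mmp12 was at 90.7 and 26.4 FPKM in the WT pair (log2 ratio -1.74) and at 102 and 27.9 FPKM in the KO pair (-1.83), lower in both pairs, and the stromelysin Mmp3 (-1.72) was lower in the WT pair.

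Of 30 Wnt ligands and receptors, 19 were compared, 9 were higher and 1 was lower, with a median of 0.94. The receptor tyrosine kinase Ror2, which binds Wnt5a, was at 0.506 FPKM in the control library and 5.71 FPKM in the induced library (log2 ratio 2.16). Lgr5, a receptor for R-spondins, was at 0.0980 and 3.87 FPKM in the WT pair (log2 ratio 2.15) and at 0.0300 and 0.0111 FPKM in the KO pair (-0.03), and the R-spondin gene Rspo2 at 8.51 and 38.1 FPKM in the WT pair (log2 ratio 2.04) and at 14.4 and 15.02 FPKM in the KO pair (0.06). Lgr5 was thus at or near the floor in every library but the induced WT one. The Frizzled receptors Fzd1 (1.85), Fzd5 (1.85) and Fzd8 (1.60), the ligands Wnt5a (1.37) and Wnt9a (1.12) and the co-receptor Lrp6 (1.13) made up the rest. Wnt4 (-1.71) was lower.

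The secreted Wnt antagonists and target genes went both ways, with 12 of 20 compared, 4 higher and 6 lower, and a median of -0.39 that changed sign at a floor of 5 FPKM. Sfrp1, a decoy for Wnt ligands, was at 25.2 and 1.93 FPKM in the WT pair (log2 ratio -3.16) and at 18.95 and 11.8 FPKM in the KO pair (-0.65). Its relative Sfrp2 was at 3.80 and 23.3 FPKM in the WT pair (log2 ratio 2.34) and at 1.60 and 1.47 FPKM in the KO pair (-0.07), in the opposite direction. The other antagonists Wif1 (-2.22), Sfrp4 (-2.07), Dkk2 (-1.45) and Frzb (-1.28) were lower, whereas Dkk3 (1.69) and the Dickkopf receptor Kremen1 (1.39) were higher. The feedback target Nkd2 was at -1.02 in the WT pair and -1.11 in the KO pair. The target gene Wisp1, given above with the matricellular genes, was the remaining higher member. The target genes Axin2, Lef1 and Notum did not reach 1 FPKM.

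Of 11 BMP response genes, 10 were compared, none was higher and 6 were lower, with a median of -1.69. Id1 was at 114 and 5.32 FPKM in the WT pair (log2 ratio -4.19) and at 56.5 and 90.2 FPKM in the KO pair (0.66). Id3 was at 333 and 105 FPKM in the WT pair (log2 ratio -1.65) and at 237 and 239 FPKM in the KO pair (0.01), and Id2 at 226 and 52.9 FPKM in the WT pair (log2 ratio -2.08) and at 196 and 126 FPKM in the KO pair (-0.63). In all 3 the induced WT library was the lowest of the 4. The inhibitory mediator Smad6 (-2.07), Atoh8 (-2.41) and the homeobox gene Dlx2 (-1.73) were lower too, and Smad7 was within the rule at -0.79. With the KO control library 6 genes were likewise lower.

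Of 32 ligands, receptors and antagonists of the TGF-beta and BMP family, 24 were compared, 7 were higher and 1 was lower, with a median of 0.77. Gdf6, a BMP family ligand, was at 0.0597 and 5.71 FPKM in the WT pair (log2 ratio 2.66) and at 0.0337 and 0.113 FPKM in the KO pair (0.11), and the type I receptor Bmpr1a at 4.81 and 20.04 FPKM in the WT pair (log2 ratio 1.86) and at 10.3 and 6.64 FPKM in the KO pair (-0.56). Bmp5 (1.59), the type II receptor Bmpr2 (1.34), the activin chain Inhbb (1.19), and the secreted antagonists follistatin, Fst (1.42), and gremlin, Grem1 (1.03), were higher as well. Grem1 was at 32.5 and 67.7 FPKM in the WT pair (log2 ratio 1.03) and at 30.4 and 10.5 FPKM in the KO pair (-1.46), past the rule in opposite directions in the WT and KO pairs. The co-receptor Eng (-1.10), which endothelial and stromal cells carry, was lower. With the KO control library, 4 genes were higher in place of 7.

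Known glucocorticoid targets gave the highest list median after that of the small leucine-rich proteoglycans. Of 24 genes, 21 were compared, 12 were higher and 2 were lower, with a median of 1.38. Fkbp5 was at 4.10 FPKM in the control library, 118 in the induced library, and 3.94 and 79.3 FPKM in the KO pair, high in both induced libraries. Sult1a1, a sulfotransferase, was at 4.49 and 28.7 FPKM in the WT pair (log2 ratio 2.44) and at 5.998 and 29.9 FPKM in the KO pair (2.14), and the clock gene Per1 at 3.90 and 15.05 FPKM in the WT pair (log2 ratio 1.71) and at 5.47 and 15.1 FPKM in the KO pair (1.31). In each of these genes both induced libraries lay above both control libraries. Rgcc, a cell cycle regulator, was the fourth gene past the rule in both pairs, at 1.75 and 1.39. The pyruvate dehydrogenase kinase Pdk4 (2.08), the mTOR inhibitor Ddit4 (2.02), Zbtb16 (1.91), Klf9 (1.77), the kinase inhibitor Cdkn1c (1.69), Errfi1 (1.48), the kinase Sgk1 (1.38) and glutamine synthetase, Glul (1.36), made up the 12, with ratios from -0.14 to 0.96 in the KO pair. The 2 lower members were metallothioneins. Mt2 was at 245 and 104 FPKM in the WT pair (log2 ratio -1.23) and at 152 and 791 FPKM in the KO pair (2.37) and Mt1 at 802 and 283 FPKM in the WT pair (log2 ratio -1.50) and at 549 and 1097 FPKM in the KO pair (0.998), and their summed level was 1047 and 386 FPKM in the WT pair and 701 and 1888 FPKM in the KO pair. The X-linked target Tsc22d3 (GILZ) was outside the autosomal set and was at 28.9 and 160.1 FPKM in the WT pair (log2 ratio 2.43) and at 28.0 and 126 FPKM in the KO pair (2.13). The receptor gene Nr3c1 had a ratio of 0.08. Of 19 clock genes, 16 were compared and 2 (12.5%) were higher, Per1 and Arntl (1.17), beside 6.75% of all genes.

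Adipocyte genes were lower in part. Of 30, 21 were compared, 1 was higher and 4 were lower, with a median of -0.42. Pparg, which encodes the master receptor of fat cells, was at 37.3 and 13.2 FPKM in the WT pair (log2 ratio -1.43) and at 36.7 and 30.5 FPKM in the KO pair (-0.26). The hormone gene Adipoq was at 4.71 and 1.17 FPKM in the WT pair (log2 ratio -1.40) and at 6.24 and 4.93 FPKM in the KO pair (-0.29). The induced WT library was the lowest for both. Fatty acid-binding Fabp5 (-1.36), which macrophages express too, and the lipid droplet gene Plin4 (-1.48) were the other lower members, and the fatty acid transporter Cd36, also a macrophage gene, was higher at 20.2 FPKM in the control library and 79.2 FPKM in the induced library (log2 ratio 1.92).

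The marrow stromal markers went both ways. Of 22, 20 were compared, 9 were higher and 5 were lower, with a median of 0.73. The MSC ectoenzyme Nt5e (CD73) was at 0.187 and 7.18 FPKM in the WT pair (log2 ratio 2.79) and at 0.168 and 0.312 FPKM in the KO pair (0.17), and the adhesion receptor Vcam1 at 9.05 and 53.5 FPKM in the WT pair (log2 ratio 2.44) and at 11.8 and 13.2 FPKM in the KO pair (0.16). The platelet-derived growth factor receptors Pdgfrb (1.70) and Pdgfra (1.18), the mesenchymal factors Prrx1 (1.54) and Foxc1 (1.17), the niche factors Angpt1 (1.46) and Kitl (1.18), and Grem1 were higher with them. The neurotrophin receptor Ngfr (-2.89), nestin, Nes (-2.27), Thy1 (-1.73), Mcam (-1.71) and Eng were lower. Cxcl12, the chief niche chemokine, was within the rule at -0.31, and Lepr stayed under 1 FPKM. With the KO control library, 5 were higher in place of 9.

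Markers of fibroblast progenitors had the lowest median of all lists, -3.22, with 9 of 14 compared, 6 lower and 1 higher. Ly6a was at 245 and 12.9 FPKM in the WT pair (log2 ratio -4.15) and at 163 and 170.5 FPKM in the KO pair (0.06), and Cd34 at 16.6 and 0.262 FPKM in the WT pair (log2 ratio -3.80) and at 13.6 and 7.68 FPKM in the KO pair (-0.75). Plac8 was at 108 and 6.61 FPKM in the WT pair (log2 ratio -3.84) and at 99.0 and 263 FPKM in the KO pair (1.40), with its ratio past the rule in opposite directions in the 2 pairs. Ly6c1 (-3.75), Mfap5 and Sfrp1 were the other lower members, and for every one of the 6 the induced WT library was the lowest of the 4. The hyaluronan synthase Has2 was higher at 1.41 FPKM in the control library and 9.72 FPKM in the induced library (log2 ratio 2.15). Of 17 contractile genes, 15 were compared, none was higher and 2 (13.3%) were lower, beside 7.4% of all genes. These were calponin, Cnn1 (-1.43), and desmin, Des (-1.39). The list's median of -0.28 changed sign with the KO control library. Among 18 cartilage genes only 5 were compared, of which Comp and Col10a1 (-1.37) were lower.

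Imprinted and insulin-like growth factor genes had 20 of 24 compared, 6 higher and 3 lower. H19 was at 0.381 and 30.7 FPKM in the WT pair (log2 ratio 4.52) and at 1.32 and 1.76 FPKM in the KO pair (0.25), and Igf2, which lies beside it, at 1.07 and 7.06 FPKM in the WT pair (log2 ratio 1.96) and at 2.32 and 1.40 FPKM in the KO pair (-0.47). Both were highest in the induced WT library. The imprinted genes Grb10 (2.05), Mest (1.47), Peg10 (1.07) and Cdkn1c were higher too. The imprinted non-coding RNA Meg3 (-1.88) and its neighbour Rian (-1.13) were lower, and Igfbp2 was at 2.10 FPKM in the control library and listed at 0 in the induced one. Of 29 growth factor genes, 19 were compared, 5 were higher and 3 were lower, and the median of -0.23 changed sign under rescaling without the most abundant entries. Fgfr2, a receptor needed for bone growth, was at 2.18 and 13.3 FPKM in the WT pair (log2 ratio 2.18) and at 3.01 and 3.25 FPKM in the KO pair (0.08), and Fgfr1 at 25.1 and 79.5 FPKM in the WT pair (log2 ratio 1.62) and at 25.5 and 21.2 FPKM in the KO pair (-0.26). Pdgfc (1.68), Pdgfd (1.47) and Egfr (1.27) were higher, and Bdnf (-2.03) and Pdgfb (-1.93) were among the lower genes. Among 13 compared genes of the osteoclast axis, Tnfrsf11b, the decoy receptor osteoprotegerin, was higher at 3.01 and 15.3 FPKM in the WT pair (log2 ratio 2.03) and at 5.45 and 4.36 FPKM in the KO pair (-0.27), and so was the macrophage growth factor Il34 (1.65), while the proton pump gene Tcirg1 (-1.29) was lower. The osteoclast cytokine gene Tnfsf11 stayed under 1 FPKM.

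Macrophage genes were mostly within the rule or lower. Of the 29 compared, 1 was higher and 11 were lower, with a median of -0.75. Cd14, a receptor for lipopolysaccharide, was at 340.6 and 37.8 FPKM in the WT pair (log2 ratio -3.14) and at 345 and 212 FPKM in the KO pair (-0.70). The adaptor gene Tyrobp was at 1936 FPKM in the control library and 843 FPKM in the induced library (log2 ratio -1.20), and the lysosomal marker Cd68 at 1201 FPKM in the control library and 490.0 FPKM in the induced library (log2 ratio -1.29). In contrast Lyz2, lysozyme, was at 7937 FPKM in the control library and 6763 FPKM in the induced library (log2 ratio -0.23), and Ptprc, the pan-leukocyte antigen CD45, at 37.4 FPKM in the control library and 34.3 FPKM in the induced library (log2 ratio -0.12). Adgre1 (F4/80) had a ratio of 0.41 and the growth factor receptor Csf1r of -0.69, both within the rule. Among the other lower members were Itgax (-2.06), Coro1a (-1.76), Lilrb4a (-1.58), Trem2 (-1.46) and the lineage factor Spi1 (-1.33), and the scavenger receptor Marco was higher at 0.259 FPKM in the control library and 2.47 FPKM in the induced library (log2 ratio 1.46). Rescaling without the most abundant entries left 6 lower members in place of 11.

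Genes of tissue-resident and alternatively activated macrophages had 18 of 22 compared, 7 higher and 2 lower, with a median of 0.32 and a summed level of 7919 FPKM in the control library and 7837 FPKM in the induced one. F13a1 was at 1.05 and 8.76 FPKM in the KO pair, a ratio of 2.25. The mannose receptor Mrc1 was at 63.6 and 266 FPKM in the WT pair (log2 ratio 2.04) and at 105 and 137 FPKM in the KO pair (0.38), and Siglec1 at 1.79 and 33.6 FPKM in the WT pair (log2 ratio 3.63) and at 2.75 and 5.36 FPKM in the KO pair (0.76). Stab1, a scavenger receptor, was at 85.9 and 241 FPKM in the WT pair (log2 ratio 1.48) and at 106 and 219 FPKM in the KO pair (1.04), higher in both pairs. Mertk (1.90), a receptor for dying cells, the haemoglobin scavenger receptor Cd163 (1.30) and Cbr2 (1.31) were higher too. The chemokine genes Ccl8 (-3.54) and Pf4 were lower, and Pf4 was at 175 and 47.9 FPKM in the WT pair (log2 ratio -1.85) and at 129.8 and 264 FPKM in the KO pair (1.02), past the rule in opposite directions in the 2 pairs. The complement genes C1qa, C1qb and C1qc, among the most abundant here, had ratios of 0.05, -0.53 and -0.53. Folr2 (0.32) and Fcna (-0.71) were within the rule too, and the listed members Lyve1, Timd4 and Cd209f stayed under 1 FPKM.

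MHC class II and co-stimulatory genes had 9 of 13 compared, none higher and 4 lower, with a median of -0.77. Cd74 was at 96.0 and 32.5 FPKM in the KO pair, a ratio of -1.53. H2-Aa was at 22.1 and 0.430 FPKM in the WT pair (log2 ratio -4.01) and at 19.4 and 3.04 FPKM in the KO pair (-2.34), H2-Eb1 at 8.90 and 0.755 FPKM in the WT pair (log2 ratio -2.50) and at 6.19 and 1.4998 FPKM in the KO pair (-1.52) and H2-Ab1 at 23.9 and 10.7 FPKM in the WT pair (log2 ratio -1.09) and at 15.8 and 6.90 FPKM in the KO pair (-1.09). The same 4 genes were lower in the KO pair, so that both induced libraries lay below both control libraries for each of them. The co-stimulatory genes Cd80 and Cd86 had ratios of 0.22 and -0.77.

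Chemokine genes had 21 of 27 compared, 1 higher and 13 lower, with a median of -1.17. Ccl2, which draws monocytes, was at 88.7 and 10.001 FPKM in the WT pair (log2 ratio -3.03) and at 39.0 and 44.8 FPKM in the KO pair (0.20), and Ccl7 at 122 and 14.2 FPKM in the WT pair (log2 ratio -3.02) and at 36.1 and 56.8 FPKM in the KO pair (0.64). The control WT library was the highest and the induced WT library the lowest for both. Ccl4 (-3.14), Cxcl14, Ccl8 and Cxcl5, which was listed at 0 in the induced library, were also lower, and the receptor gene Ccr1 (2.01) was the 1 higher member. Of 17 inflammatory genes compared, Il1b (-1.95), Tnf (-1.33) and Il6 (-1.09) were lower and Saa3 (2.42), the interleukin-1 antagonist Il1rn (2.16), Il1rl1 (1.46) and Lif (1.12) were higher, with a median of -0.06 that changed sign under rescaling. Interferon-stimulated genes had 22 of 25 compared, none higher and 11 lower, with a median of -0.87. Isg15 was at 15.9 and 4.45 FPKM in the WT pair (log2 ratio -1.63) and at 7.09 and 8.20 FPKM in the KO pair (0.18), and Ifit3 at 5.89 and 0.338 FPKM in the WT pair (log2 ratio -2.36) and at 2.79 and 1.44 FPKM in the KO pair (-0.64). Here the control WT library was the highest of the 4, and with the KO control library in its place 1 gene was lower and 1 was higher. Of 13 complement genes compared, 2 (15.4%) were higher, the regulator Cd55 (1.71) among them, and 2 (15.4%) were lower, Cd59a (-1.36) and C1s1 (-1.22). The shares of all genes were 6.75% and 7.4%.

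Genes of the dividing cell were mostly lower. Of 30 mitosis genes, 30 were compared, 27 were lower, none was higher and all ratios were below 0, with a median of -1.45. Mki67, the antigen of cycling cells, was at 10.6 and 2.30 FPKM in the WT pair (log2 ratio -1.82) and at 8.79 and 7.22 FPKM in the KO pair (-0.25). Birc5, survivin, was at 36.9 and 6.14 FPKM in the WT pair (log2 ratio -2.41) and at 17.6 and 25.99 FPKM in the KO pair (0.54), and the centromere histone gene Cenpa at 34.6 and 6.32 FPKM in the WT pair (log2 ratio -2.28) and at 28.0 and 18.7 FPKM in the KO pair (-0.56). The other 3 libraries lay well above the induced WT library in each case. Of 30 S phase genes, 28 were compared, 17 were lower and all 28 ratios were below 0, with a median of -1.25. Rrm2, a subunit of ribonucleotide reductase, was at 46.4 and 8.08 FPKM in the WT pair (log2 ratio -2.38) and at 31.6 and 37.7 FPKM in the KO pair (0.25), while its partner Rrm1 had a ratio of -0.02. The helicase genes Mcm5 (-1.93) and Mcm3 (-1.79) and thymidine kinase, Tk1 (-2.11), were lower, and Pcna was just within the rule at -0.97. In the KO pair none of the genes of either list was past the rule. The counts of lower genes were 24 and 18 with the KO control library, and 21 and 15 with the libraries rescaled without their most abundant entries.

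**Figure D4:**
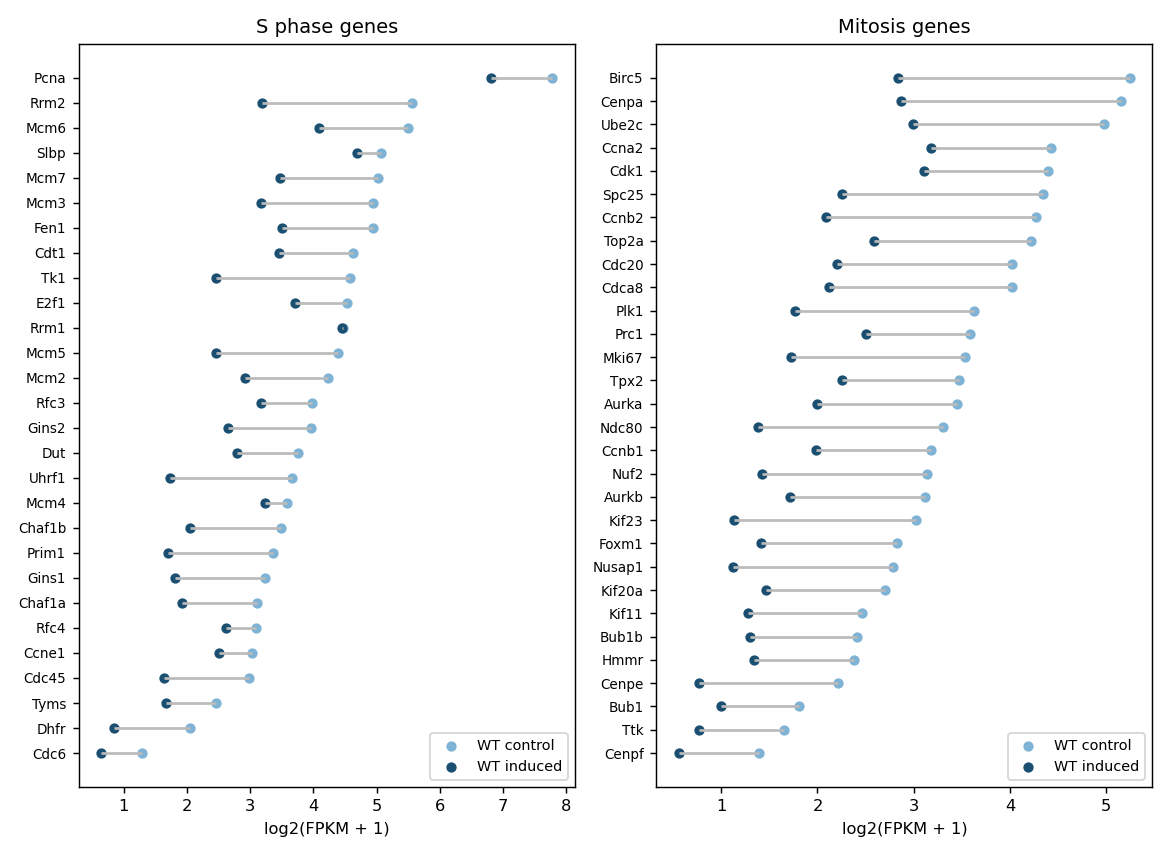
Each row is 1 compared gene of the S phase list (left, 28 genes) or the mitosis list (right, 30 genes), with log2(FPKM + 1) in the control library (light) and the induced library (dark) on the x axis. The dark point lies left of the light one in every row, and for Rrm1 the points nearly coincide.

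Of 20 genes of cell cycle arrest, 20 were compared, 3 were higher and 1 was lower, with a median of 0.32. Cdkn1c, p57, was at 3.60 and 13.9 FPKM in the WT pair (log2 ratio 1.69) and at 2.34 and 2.03 FPKM in the KO pair (-0.14), and the p53 target Trp53inp1 at 10.3 and 37.2 FPKM in the WT pair (log2 ratio 1.75) and at 18.8 and 11.1 FPKM in the KO pair (-0.71). Rb1 (1.04) was the third. Cdkn1a, p21, was within the rule at 125 and 248.8 FPKM in the WT pair (log2 ratio 0.99) and at 134 and 152 FPKM in the KO pair (0.18). Cdkn2a, which encodes p16 and p19, was lower at 267 and 132 FPKM in the WT pair (log2 ratio -1.01) and at 143 and 203 FPKM in the KO pair (0.50), a call that median-ratio scaling, rescaling, the KO control library and the length correction each removed. Of 20 immediate early genes compared, Egr1 (1.24) was higher and Ier3 (-1.52), Junb (-1.10) and Jund (-1.01) were lower. These were 5% and 15% of the list, beside 6.75% and 7.4% of all genes. The list's median of -0.07 changed sign under rescaling and with the length trend removed.

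Cholesterol genes had 24 of 25 compared, 1 higher and 5 lower, with a median of -0.66. The synthesis genes Fdps (-1.45) and Mvd (-1.29), the regulator Insig1 (-1.30) and the sterol receptor Nr1h3 (-1.19) were among the lower genes, and the export pump Abca1 was higher at 5.47 and 22.98 FPKM in the WT pair (log2 ratio 1.89) and at 10.6 and 5.69 FPKM in the KO pair (-0.80). Antioxidant genes had 24 of 25 compared, 3 higher and 4 lower. Catalase, Cat, was at 74.0 and 305 FPKM in the WT pair (log2 ratio 2.03) and at 97.0 and 153 FPKM in the KO pair (0.66), and Gclm, of glutathione synthesis, at 34.6 and 133 FPKM in the WT pair (log2 ratio 1.91) and at 40.8 and 80.3 FPKM in the KO pair (0.96). Glutathione reductase, Gsr, was higher in both pairs, at 1.12 and 1.14. The glutathione peroxidases Gpx1 (-1.08) and Gpx4 (-1.12), superoxide dismutase Sod1 (-1.40) and Gsta4 (-1.90) were lower. Of 22 glycolysis and hypoxia genes compared, only Bnip3 (1.08) was past the rule, and the median of -0.08 changed sign under rescaling, with the KO control library and with the length trend removed. Of 24 lysosome genes compared, Ctsz (-1.38), Tcirg1, Npc2 (-1.11) and Tfeb (-1.10) were lower, and the only higher one was Atp6v0c, whose reads are shared. Their median of -0.22 changed sign under rescaling.

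Ribosomal protein genes had 37 of 38 compared, with 36 ratios below 0, 2 of them past the rule, Rps15 (-1.09) and Rpl38 (-1.01), and a median of -0.57. This median was 0.00 with the KO control library and -0.13 with the length trend removed, and no gene of the list was then past the rule. The respiratory chain had 26 of 28 genes compared, 1 of them lower, Cox4i1 (-1.001), and a median of -0.30 that was 0.02 with the KO control library and 0.12 with the length trend removed. Of 24 endoplasmic reticulum stress genes, only Ddit3 (-1.60) was past the rule, and the median of -0.02 changed sign under each scaling, the KO control library and the length correction. None of 17 HOX genes and none of 16 genes that write, read or erase histone H3 lysine 9 methylation, a group that Kdm4b belongs to, was past the rule, the largest ratios being those of Hoxb4 (-0.97) and Ehmt2 (-0.68).

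Markers of other cells were few. Of 14 endothelial genes, 4 were compared, the list summed to 11.7 FPKM in the control library and 4.87 FPKM in the induced one, and the defining genes Cdh5 and Tek were under 1 FPKM. Of 22 markers of lymphoid, erythroid, granulocyte and other blood cells found in the tables, 12 were listed at 0 in both WT libraries, among them Cd3e and Mpo. Of the 2 genes compared, the neutrophil gene S100a8 was higher, at 2.11 FPKM in the control library and 5.78 FPKM in the induced library (log2 ratio 1.12). The neutrophil genes S100a9 and Elane were listed at 0 in both WT libraries. Of 12 skeletal muscle genes, 7 were listed at 0 in both, including Myod1 and Myog, and Acta1 was at 17.2 FPKM in the control library and 0.814 FPKM in the induced library (log2 ratio -3.33).

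The KO pair gives the one other set of values for the same media, with no library in common and with Xist expressed on both sides. Of 11067 genes compared in both pairs, 668 were higher in the induced WT library and 100 in the induced KO library, and 38 were in both sets, which is 5.69% of the first and 38% of the second. For the lower genes the sets held 824 and 81, and 33 were in both, 4.00% and 40.7%. Of all genes compared in the WT pair, 6.75% were higher and 7.4% were lower, and in the KO pair 0.945% and 0.767%. The genes higher in the WT pair had a median ratio of 1.28 there and -0.16 in the KO pair, and the lower genes -1.33 and -0.00. Among genes that reached 5 FPKM, the shared higher ones were led, by the smaller of their 2 ratios, by Fkbp5, F13a1, Sult1a1, Pla2g7 and Ms4a6b, with ratios in the KO pair of 4.02, 2.25, 2.14, 1.99 and 1.92. The shared lower genes were led by H2-Aa, Mmp12 and Sfrp4, with -2.34, -1.83 and -1.73. Glucocorticoid targets contributed 4 shared higher genes, tissue-resident macrophage genes 3, and MHC class II 4 shared lower ones. Other lists gave shared genes too, among them Saa3 and Marco, higher in both pairs, and Itgax and Il1b, lower in both. No compared gene of the collagen list or the mitosis list was past the rule in the KO pair. Col10a1, counted with the cartilage genes, was lower in both pairs, at -1.37 and -1.35. How the genotype label, the sex of the donor and the culture each bear on the difference between the pairs cannot be told apart.

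**Figure D5:**
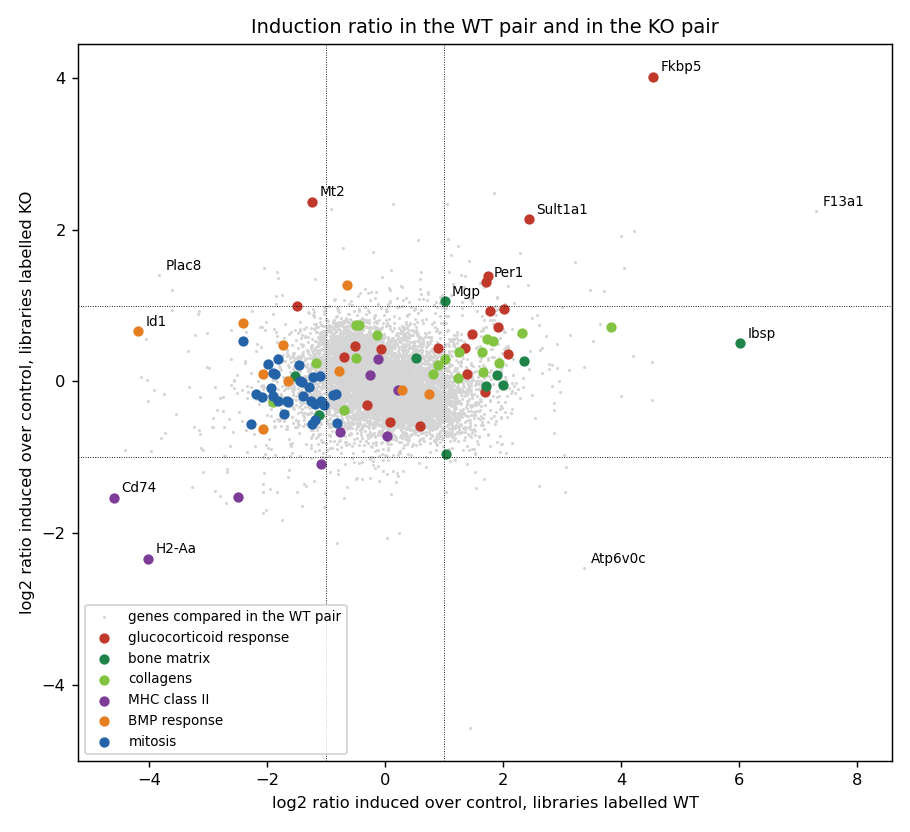
Each point is a gene, with its log2 ratio of FPKM + 1, induced over control, in the WT pair on the x axis and in the KO pair on the y axis, and colours mark 6 lists. Fkbp5, Sult1a1 and Per1 lie past the 2-fold rule (dotted lines) on both axes and so do Cd74 and H2-Aa, while Ibsp, the collagens and the mitosis genes are spread along the x axis.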

How the data were processed

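Per the labels, bead-purified polyadenylated RNA went into a stranded library kit. The deposited values were FPKM per gene, per the file headers. The authors used TopHat, Cufflinks and the mouse build mm9, per the submitters' processing notes. Versions, annotation, filters and how the control and induced tables were normalized to each other are not given in the sources used here; each ratio sets values from separate tables side by side. Libraries were assigned by column names, because the control table's sheet was named with the abbreviation for induction.

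The tables were joined by symbol, without 27 date entries. Chromosomes came from RefSeq GRCm38.p6, which matched 23143 entries by symbol and 1060 by an older symbol, with 116 unmatched. Ratios were computed with Python 3.11.15, pandas 2.3.3 and numpy 2.4.6, and the script was tested on simulated data. No FPKM value had a read count behind it here, so absolute depth and counting error are unknown. Of 1023 genes in 46 lists, 1018 were found. The genes named were the 15 largest ratios each way at 5 FPKM or more with a plain symbol (no predicted, RIKEN, small RNA or joint entries), list members past the 2-fold rule or with the largest ratios of their list, and a fixed set of lineage, marker and sex genes. Other genes named were chosen after their values were seen, and so were the genes shared with the KO pair. Some list members are counted but not reported here by name. The comparison and the lists were chosen with earlier results of these data known. Alternatives changed the pseudocount, the FPKM floor, the scaling, the control library, the chromosomes kept and the length trend (statsmodels 0.14.6).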

Additional observations from a re-analysis of the deposited data

Results flagged for a closer look

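Of the 668 genes past the 2-fold rule as higher in the WT pair and compared in both pairs, 13 were lower in the KO pair. Of the 824 lower genes, 10 were higher in the KO pair. Over all 11067 genes compared in both pairs, 81 were lower and 100 were higher in the KO pair. For 7 of the named genes the ratio of induced to control was past the 2-fold rule in opposite directions in the pairs labelled WT and KO. With 1 library per group these differences were not tested. Sp7 was at 1.60 in the WT pair and -1.02 in the KO pair, Mmp13 at 2.60 and -1.38, and Grem1 at 1.03 and -1.46. Plac8 was at -3.84 and 1.40, Mt2 at -1.23 and 2.37, and Pf4 at -1.85 and 1.02. Atp6v0c was at 3.37 and -2.46, but the sum with its copy Atp6v0c-ps2 was at -0.60 and 0.07.

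Genes of the Y chromosome, outside the autosomal comparison, gave values in the induced library labelled WT alone. Ddx3y was at 28.7 FPKM, Eif2s3y at 39.4 FPKM, Uty at 8.20 FPKM and Kdm5d at 4.79 FPKM. Elsewhere Ddx3y did not exceed 0.0208 FPKM, and the remaining Y genes had values of 0.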

How the results depend on the processing

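Of the alternatives run, a pseudocount of 5 gave 285 higher and 368 lower genes in place of 778 and 852. Rescaling without the small RNA genes, Rn45s and the 10 most abundant entries gave 1411 and 536, moved the median of all genes from -0.04 to 0.23, and raised the higher share of the calls from 47.7% to 72.5%. The KO control library left 479 higher and 580 lower genes. The KO pair in place of the WT pair, an alternative chosen after seeing the data, gave 106 and 86. Under the remaining alternatives both counts stayed within 1.5 times, the extremes being 1153 and 1206 with a pseudocount of 0.1 and 595 and 633 at a floor of 5 FPKM. Removing the length trend, with a length for 99.7% of genes, gave 636 and 640. Apart from the KO pair, for which single genes stand in the report, no alternative changed the sign of a named gene past the rule. Of 306 named genes past the rule, 112 fell short of it with a pseudocount of 5, 82 with the KO control library, 49 without the length trend and 39 after rescaling, and the cause was not tested. No paired analysis was possible because each group held 1 library, and for the same reason no replicate could be left out. Absolute depth is unknown, so no limit of detection can be given.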

Other observations

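Of 382 X-linked genes with at least 1 FPKM in either WT library, 48 were higher and 21 were lower in the induced library, 18.1% in all, with a median log2 ratio of 0.24. Single autosomes ran from 11.9% called on chromosome 12 to 18.9% on chromosome 3. Besides Tsc22d3, the X-linked macrophage receptor gene Vsig4 was higher at 0.0378 FPKM in the control library and 3.25 FPKM in the induced library (log2 ratio 2.03), and properdin of the complement system, Cfp, was lower at 294 and 47.9 FPKM in the WT pair (log2 ratio -2.59) and at 214 and 225 FPKM in the KO pair (0.07). The protease inhibitor gene Timp1, one of the most abundant X-linked genes listed, was at 749.9 and 940.1 FPKM in the WT pair (log2 ratio 0.33) and at 663 and 834 FPKM in the KO pair (0.33). Of 162 small RNA entries, which such libraries measure poorly, 43 were higher and 84 were lower.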
